A study of Mus musculus with 12 samples.

Results

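Proliferins are secreted hormones of the prolactin family, encoded in the mouse by the near-identical Prl2c genes. They were first found as products of growth-stimulated fibroblast lines, and in the animal the trophoblast giant cells of the placenta are the classic source. Proliferin binds the cation-independent mannose 6-phosphate receptor, encoded by Igf2r, and promotes the growth of blood vessels. Its promoter is a textbook case of an element at which the glucocorticoid receptor and AP-1, a dimer of Jun and Fos proteins, act together.

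The genes described here are all those whose symbol begins with Prl2c in the deposited expression tables of mouse embryonic fibroblasts. There were 3 such rows, Prl2c2, Prl2c3 and Prl2c5, among 23186 genes listed in either table. They were chosen by their large rise in Keap1 R554Q cells, so values of that comparison are given as a description without a test. Prl2c2 and Prl2c3 were listed in both tables. Prl2c5 was listed in the Keap1 table only.

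The fibroblasts were taken from embryos at embryonic day 13.5 to 14.5 and were homozygous for a mutant allele that Cre recombinase turns on. One allele, LSL-Nrf2D29H, carries a missense change in NRF2 (gene Nfe2l2), the transcription factor that drives antioxidant and detoxification genes. The other, CA-Keap1R554Q, carries a missense change in KEAP1, the adaptor that marks NRF2 for degradation. Cells received adenovirus with Cre (the Nrf2 D29H and Keap1 R554Q groups) or empty adenovirus at a multiplicity of infection of 500, and RNA was collected 4 days later. The labels call the Nrf2 cells with empty virus Nrf2 knockout (KO) and the Keap1 cells with empty virus wild type (WT). Each of the 4 groups had 3 libraries, and the labels do not say whether these came from separate embryos, so p-values measure the spread between these libraries. No group combined Cre with a normal allele, so effects of Cre virus and of the mutant allele cannot be told apart within a comparison. Embryonic origin, culture and control state all differ between the Nrf2 and Keap1 cells and cannot be told apart either.

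Library totals ran from 14963004 to 23818477 counted reads, and the labelled knockout replicate 3 was the shallowest. Nfe2l2 stood at 46.5, 40.1 and 41.2 CPM (read counts normalised for library size) in the labelled knockout libraries and at 49.6, 57.1 and 52.4 CPM in D29H. The labelled knockout mean of 42.6 ± 3.41 CPM was close to 42.9 ± 1.22 in the Keap1 wild type and 40.8 ± 6.28 in R554Q (SD, n = 3 each). Of 12 NRF2 reference targets, 11 had a lower mean in the labelled knockout than in the Keap1 wild type, such as Hmox1 at 51.2 ± 2.15 against 121 ± 7.06 CPM, and Slc7a11 was higher. Gene counts do not read the mutant bases. Of the same targets, 10 rose in D29H and 11 rose in R554Q, with median log2 fold changes of 1.31 and 1.77. Across all genes, edgeR's quasi-likelihood test at an adjusted p under 0.05 called 498 of 14370 (3.47%) higher and 184 (1.28%) lower in D29H, and 533 of 14128 (3.77%) higher and 339 (2.4%) lower in R554Q. These counts depended on single libraries, with 72 higher genes left without D29H replicate 3 and 1530 found without R554Q replicate 3. Collagen, Vim and other fibroblast markers summed to 23739 to 25896 CPM in the labelled knockout and 21917 to 22498 in D29H. The sums were 20378 to 23200 CPM in the Keap1 wild type and 19403 to 21956 in R554Q. D29H sums lay below the labelled knockout, and how many of all genes do so was not counted. Col1a1 alone averaged 10302 CPM in the labelled knockout and 9132 in D29H. Of the 10 markers edgeR and limma called none in D29H, and DESeq2 called 1 higher and 1 lower. Their log2 fold changes ran from -0.36 for Vim to 0.32 for Pdgfra, with a median of -0.16. The part of the lower D29H sums in the proliferin values was not tested.

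All 3 genes lie within one stretch of chromosome 13 (GRCm38 coordinates as the tables list them). Prl2c3 (ENSMUSG00000056457) is on the minus strand at chr13:12790822-12800078 and Prl2c2 (ENSMUSG00000079092) on the minus strand at chr13:12996132-13005383. Prl2c5 (ENSMUSG00000055360) is on the plus strand at chr13:13182715-13191923. In the GENCODE M21 annotation of GRCm38 each has a protein-coding transcript of 5 exons. Those of Prl2c2 and Prl2c3 were identical at 838 of 847 aligned positions (98.9%), and that of Prl2c5 was identical to Prl2c2 at 806 of 842 (95.7%) and to Prl2c3 at 814 of 857. Of all stretches of 100 bases, 66.4% in Prl2c2, 62.3% in Prl2c3 and 8.72% in Prl2c5 occurred letter for letter in another annotated gene. At 150 bases the shares were 50.9%, 49.9% and 0%. Stretches of 150 bases in Prl2c2 and Prl2c3 also occurred in another gene, Gm7040, and stretches of 50 bases in Prl2c1. How the authors counted reads that match several genes is not given in the sources used here. The division of reads between Prl2c2 and Prl2c3 is therefore uncertain, and their sum is given beside each. The sum does not recover reads that were left out or counted under Gm7040 or Prl2c1.

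The promoters are shown because those of Prl2c3 and Prl2c5 differ within an AP-1-type site. No promoter was listed under Prl2c2, so that gene could not be compared. The RefSeq sequences (GRCm38.p6) held the promoters of Prl2c3 and Prl2c5, and the 250 bases before each start (chr13:12800080-12800329, minus strand, and chr13:13182466-13182715, plus strand) follow, 5′ to 3′, with capitals at the AP-1-type site of Prl2c3 and at the aligned bases of Prl2c5:
Prl2c3: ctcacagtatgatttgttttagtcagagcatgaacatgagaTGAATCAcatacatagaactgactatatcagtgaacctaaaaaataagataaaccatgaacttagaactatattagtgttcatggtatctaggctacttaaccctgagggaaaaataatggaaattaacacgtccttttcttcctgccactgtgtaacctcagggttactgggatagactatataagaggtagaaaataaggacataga
Prl2c5: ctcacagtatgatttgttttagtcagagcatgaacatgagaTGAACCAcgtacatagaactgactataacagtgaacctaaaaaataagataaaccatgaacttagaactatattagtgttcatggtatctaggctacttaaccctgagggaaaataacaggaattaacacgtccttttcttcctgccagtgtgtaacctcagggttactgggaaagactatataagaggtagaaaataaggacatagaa

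The motif TGANTCA, searched on both strands of 300 bases (250 before and 50 after the start), occurred once in Prl2c3, 209 bases before the start. In the aligned Prl2c5 bases the substitution T46C, counted from 1 at the 5′ end of the Prl2c3 stretch, interrupts it, and Prl2c5 had no match. The motif was present in 7.81% of 32851 promoters of that length. Over the 300 bases the promoters were 95.3% identical, with 12 substitutions. The antioxidant response element core TGACNNNGC, the sequence that NRF2 dimers bind, matched in neither, against 12.4% of all promoters. The TATA-type motif TATATAA matched in both, 30 bases before the start in Prl2c3 and 31 in Prl2c5, and in 3.24% of all promoters. A match describes letters only, and no match says nothing about binding outside the window.

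In the Nrf2 cells, proliferin reads rose from almost none to a low level when D29H was induced. Prl2c3 had 2, 1 and 0 reads in the 3 labelled knockout libraries and 40, 23 and 25 reads in the 3 D29H libraries. Every D29H library lay above every labelled knockout library. In CPM the means were 0.0426 ± 0.0429 and 1.33 ± 0.436 (SD, n = 3 each), and pooled over libraries the ratio was 27.7-fold with a 95% exact counting interval of 9.16 to 137. In edgeR's quasi-likelihood test the log2 fold change was 4.64 with a standard error of 0.61 and an adjusted p of 3.78e-05. Prl2c3 passed the filter on low counts only through the D29H group, and fitted without the filter edgeR gave 4.63 and an adjusted p of 1.25e-10.

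Prl2c2 gave 0 reads in all 3 labelled knockout libraries and 13, 8 and 3 reads in D29H. All D29H libraries again lay above the labelled knockout, and replicate 3 was the lowest of them. A count of 0 allows up to 3 reads over the group, or 0.0480 CPM, and against that limit Prl2c2 was at least 7.54-fold higher in D29H, where its mean was 0.363 ± 0.230 CPM (SD, n = 3). Prl2c2 did not pass the filter on low counts in this table. Fitted without the filter, edgeR gave an adjusted p of 0.00253, a setting in which 739 of 22114 genes (3.34%) were called higher. The fitted log2 fold change of 5.98 (standard error 1.45) depends on the prior count and is no bound.

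Summed over the Prl2c genes, the labelled knockout libraries held 2, 1 and 0 reads and the D29H libraries 53, 31 and 28. Replicate 1 was the highest D29H library, and the groups did not overlap. The sum stood at 0.0426 ± 0.0429 CPM and 1.69 ± 0.637 CPM (SD, n = 3 each), a pooled ratio of 35.2 with a counting interval of 11.7 to 173. The edgeR log2 fold change was 4.98 with a standard error of 0.59 and an adjusted p of 7.83e-06. The sum too passed the filter only through D29H, and without the filter edgeR gave 4.97 and an adjusted p of 2.37e-14. Exact two-sided permutation tests of Prl2c3, Prl2c2 and the sum each gave p = 0.1, the smallest that 3 against 3 allows. Among the 14370 genes that passed the filter, 1827 (12.7%) had every D29H library above every labelled knockout library.

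The size of the change rests on few reads in the labelled knockout. Without its replicate 1, which held 2 of its 3 reads, the log2 fold change became 5.41 for Prl2c3 and 5.76 for the sum, and limma with a prior count of 2 gave 3.40 and 3.71. The direction and the call held in each of these fits. All of them kept the filter that Prl2c3 and the sum passed only through D29H, so the held call is no separate support. In the authors' deposited table the log2 fold changes of this comparison were 0.75 for Prl2c3 and 0.24 for Prl2c2, with unadjusted p-values of 5.38e-08 and 0.00636. These values are far below what the read counts give. Whether the authors shrank them toward 0 is not given in the sources used here, so they are no like measure of the fitted values. The adjusted p is blank for both in the authors' deposited table, as it is for 9967 genes of that table, and by unadjusted p Prl2c3 ranked 2 and Prl2c2 ranked 30 among those genes.

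In the Keap1 cells proliferin was already present with empty virus and reached its highest level in R554Q, which is the pattern the genes were selected on. Prl2c3 had 43, 36 and 40 reads in the wild-type libraries and 469, 416 and 456 in R554Q. Its means were 2.00 ± 0.163 and 21.6 ± 2.45 CPM (SD, n = 3 each), and the pooled ratio was 10.8 with a counting interval of 8.92 to 13.1. Every R554Q library lay above every wild-type library, as was so for 1876 of 14128 genes (13.3%) in this comparison.

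Prl2c2 had 20, 24 and 14 reads in the wild type and 292, 308 and 290 in R554Q. The means were 0.971 ± 0.234 and 14.3 ± 0.337 CPM (SD, n = 3 each), and the pooled ratio was 14.7 with a counting interval of 11.2 to 19.5. R554Q replicates varied less for this gene than for Prl2c3. Prl2c5 had 1, 0 and 0 reads in the wild type and 12, 6 and 4 in R554Q, a pooled ratio of 21.0 whose counting interval ran from 3.40 to 868. All R554Q libraries lay above the wild type for Prl2c5 too, although its level stayed at 0.357 ± 0.215 CPM (SD, n = 3).

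The 3 genes together had 64, 60 and 54 reads in the wild type and 773, 730 and 750 in R554Q. This was 2.99 ± 0.0827 against 36.3 ± 2.90 CPM (SD, n = 3 each), a pooled ratio of 12.1 with a counting interval of 10.4 to 14.2. Fitted log2 changes were 3.44 for Prl2c3 and 3.87 for Prl2c2, the values on which the genes were selected. In the same fit Nqo1, a quinone reductase and classic NRF2 target, changed by 3.41 and the glutathione transferase Gsta4 by 3.21. In the authors' deposited table the log2 fold changes were 2.41 for Prl2c3, 2.38 for Prl2c2 and 0.18 for Prl2c5. These too are below what the read counts give and are no like measure of the fitted values. Per transcript length, the deposited FPKM of Prl2c3 averaged 25.3 in R554Q and 2.26 in the wild type, and those of Prl2c2 averaged 17.0 and 1.12.

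**Figure D1:**
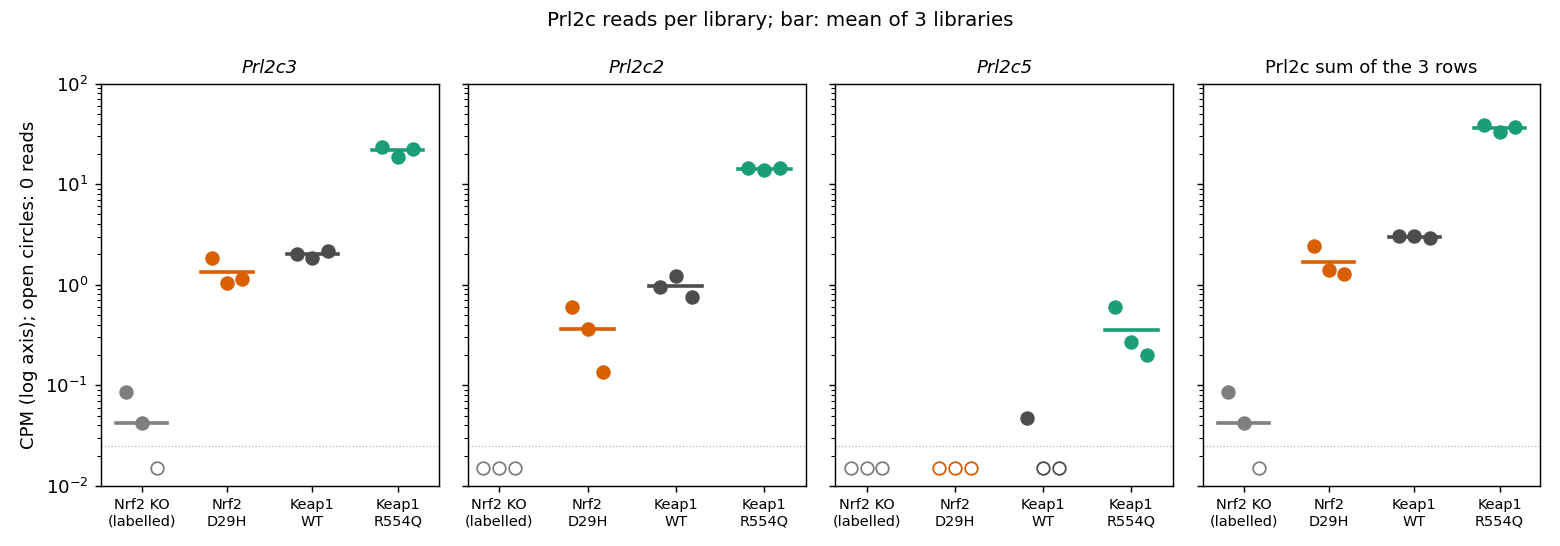
Reads of each Prl2c gene and of their sum in CPM on a log axis, with 1 point per library, 3 libraries per group, and a bar at the group mean where it is above the dotted line. Open circles below the dotted line mark libraries with 0 reads. Summed levels run from at most 0.0858 CPM in the labelled knockout to between 33.1 and 38.7 CPM in R554Q.

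Across all 4 groups the order of summed levels was labelled knockout, D29H, Keap1 wild type and R554Q. The neighbours D29H and Keap1 wild type lay closest, at 1.27 to 2.43 CPM and 2.89 to 3.04 CPM, and differed 1.77-fold when pooled (counting interval 1.39 to 2.26). That interval leaves out the spread between libraries, so it is no test of the group difference. For Prl2c3 these groups overlapped, since D29H replicate 1 stood at 1.83 CPM and wild-type replicate 2 at 1.82 CPM. For Prl2c2 they did not, with 0.136 to 0.595 CPM in D29H and 0.750 to 1.22 CPM in the wild type.

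Between the empty-virus groups the Keap1 cells had 62.3 times the summed level of the Nrf2 cells (counting interval 21.0 to 305). Between the Cre groups R554Q had 21.4 times the level of D29H (17.7 to 26.1). Prl2c5, with 0 reads in D29H, was at least 7.80-fold higher in R554Q. On the log2(CPM + 0.05) scale, 0.0705% of 14188 genes differed at least as far between the empty-virus groups and 0.0987% between the Cre groups, as a description. The Cre-group percentage uses the R554Q values on which the genes were selected, so its small size was in part fixed by that choice. These differences join cell source, NRF2 state and allele, which cannot be told apart.

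Prl2c2 made up a varying part of the proliferin reads. In D29H it took 24.5%, 25.8% and 10.7% of them in the 3 libraries, or 21.4% when pooled (exact binomial 95% interval 14.2% to 30.2%). In the Keap1 wild type it took 31.3%, 40.0% and 25.9%, or 32.6% pooled (25.8% to 40.0%), and in R554Q 37.8%, 42.2% and 38.7%, or 39.5% pooled (37.5% to 41.6%). Every R554Q library lay above every D29H library, and the wild-type libraries overlapped R554Q and lay just above D29H. Prl2c5 held 0.976% of the R554Q reads (0.613% to 1.47%), and its 0 of 112 D29H reads allow up to 3.24% by the exact interval. Intervals cover counting error only, and with sequences this similar the shares also depend on how shared reads were assigned.

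**Figure D2:**
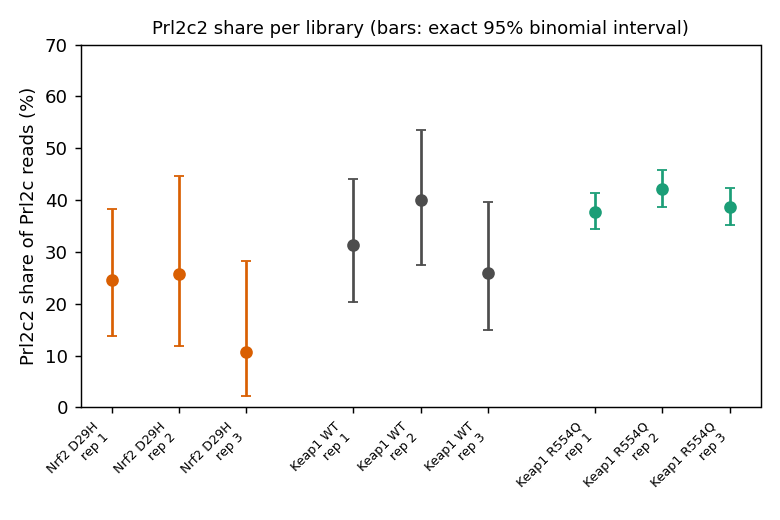
Share of Prl2c reads assigned to Prl2c2 in each library of 3 groups, in percent, with exact 95% binomial intervals. The share is 10.7% to 25.8% in D29H and 37.8% to 42.2% in R554Q; the labelled knockout is not drawn because it held only 3 reads.

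The genes whose pattern over the 12 libraries came nearest to the summed Prl2c reads were Nqo1, Gstm1, Tma7-ps, Slc40a1 and Gsta4. Likeness was the root mean square difference of mean-centred log2 CPM, which was 1.38 for Nqo1, 1.67 for Gstm1, 1.76 for Tma7-ps, 1.77 for Slc40a1 and 1.77 for Gsta4, against a median of 2.89 over 10594 genes. Nqo1 stood at 8.82 ± 1.73 CPM in the labelled knockout, 119 ± 13.1 in D29H, 33.1 ± 0.247 in the Keap1 wild type and 351 ± 39.7 in R554Q (SD, n = 3 each). Its D29H level lay above the Keap1 wild type, unlike that of the Prl2c sum. Slc40a1, the iron exporter ferroportin, showed the same order as Nqo1, at 0.713, 5.66, 1.82 and 11.8 CPM in those groups. The pseudogene Tma7-ps differed mainly between the Nrf2 and Keap1 cells, with 2.58 and 3.12 CPM in the former and 91.4 and 101 CPM in the latter. The measure is not scaled for the size of the changes, so it favours genes that vary widely, and a flat gene scores the spread of the Prl2c sum itself. The pattern also holds the R554Q rise on which the Prl2c genes were selected, which favours other genes that rise there. The libraries of a group share their cell source, so likeness is a description.

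**Figure D3:**
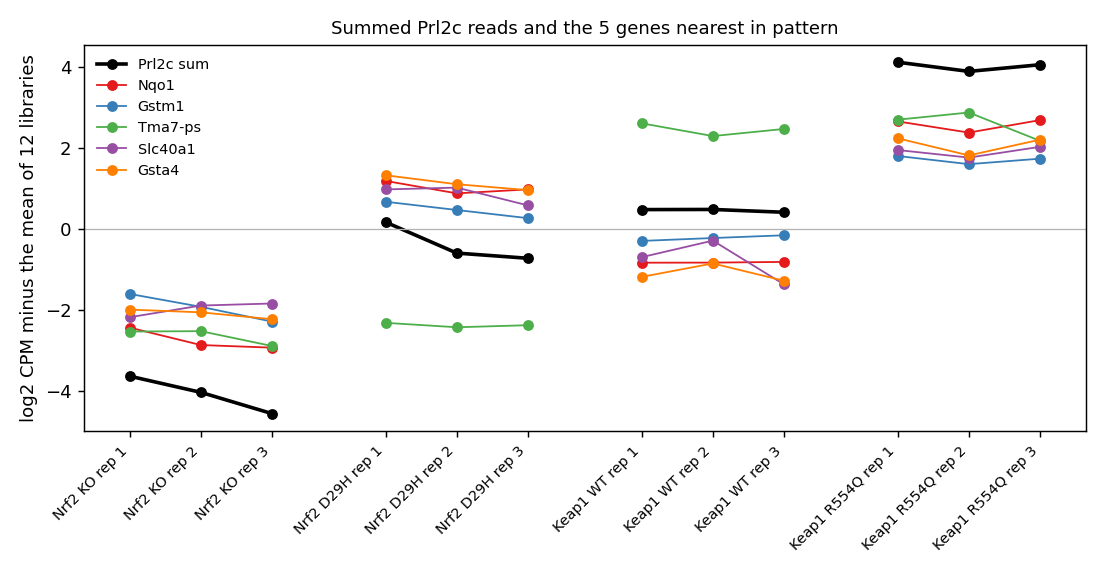
Log2 CPM minus the gene's mean over 12 libraries for the Prl2c sum (black) and the 5 genes nearest in pattern, by library; lines join the replicates of a group only to guide the eye. The Prl2c sum is below the 5 genes in the labelled knockout and above them in R554Q, and Nqo1, at 119 CPM in D29H and 33.1 CPM in the Keap1 wild type, orders those groups the other way.

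The genes around the cluster were compared in the same fits. Of 11 other listed genes within 500 kb of a Prl2c gene, 9 were tested in each comparison. In D29H none was called by edgeR at an adjusted p under 0.05, 2 (both higher) had an unadjusted p under 0.05, and DESeq2 and limma called none; log2 fold changes ran from -0.18 for Gpr137b-ps to 0.44 for Gm2399. In R554Q 2 of the 9 rose, where 3.77% of all genes did: Gpr137b, a lysosomal membrane protein, by 0.64 on the log2 scale (standard error 0.10, edgeR adjusted p 0.000773) and Nid1, a basement membrane glycoprotein, by 0.46 (0.09, edgeR adjusted p 0.0047). Both lie on the Prl2c5 side. Gpr137b rose from 15.7 ± 1.17 to 24.3 ± 0.537 CPM and Nid1 from 667 ± 39.9 to 915 ± 75.0 CPM (SD, n = 3 each), without overlap, as for 13.3% of all genes. In a fit of all 12 libraries, the D29H effect minus the R554Q effect was -0.61 for Gpr137b (edgeR adjusted p 0.0969) and -0.56 for Nid1 (edgeR adjusted p 0.159), so a difference between the alleles did not pass. That fit called 4 of 14796 genes (0.027%).

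Gpr137b-ps, a noncoding gene on the Prl2c3 side, also stood apart between the cell sources. It had 2.90 ± 0.436 CPM in the labelled knockout and 2.58 ± 0.692 in D29H, against 13.3 ± 1.13 in the Keap1 wild type and 15.1 ± 1.17 in R554Q (SD, n = 3 each). The Keap1 cells were 4.60-fold higher with empty virus and 5.86-fold higher with Cre, and 0.416% and 0.289% of 14188 genes differed at least as far. Heatr1 and Lgals8, farther out on the same side, differed by 1.05-fold and 0.740-fold between the empty-virus groups. Ero1lb, between them and Gpr137b-ps, was 1.47-fold higher in the Keap1 cells with empty virus and 1.35-fold higher with Cre. For Ero1lb, 14.2% and 23.3% of genes differed at least as far. Gpr137b, on the Prl2c5 side, went the other way, with 27.8 ± 0.332 CPM in the labelled knockout and 15.7 ± 1.17 in the wild type (SD, n = 3 each), or 0.564-fold, and 6.28% of genes differed at least as far.

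**Figure D4:**
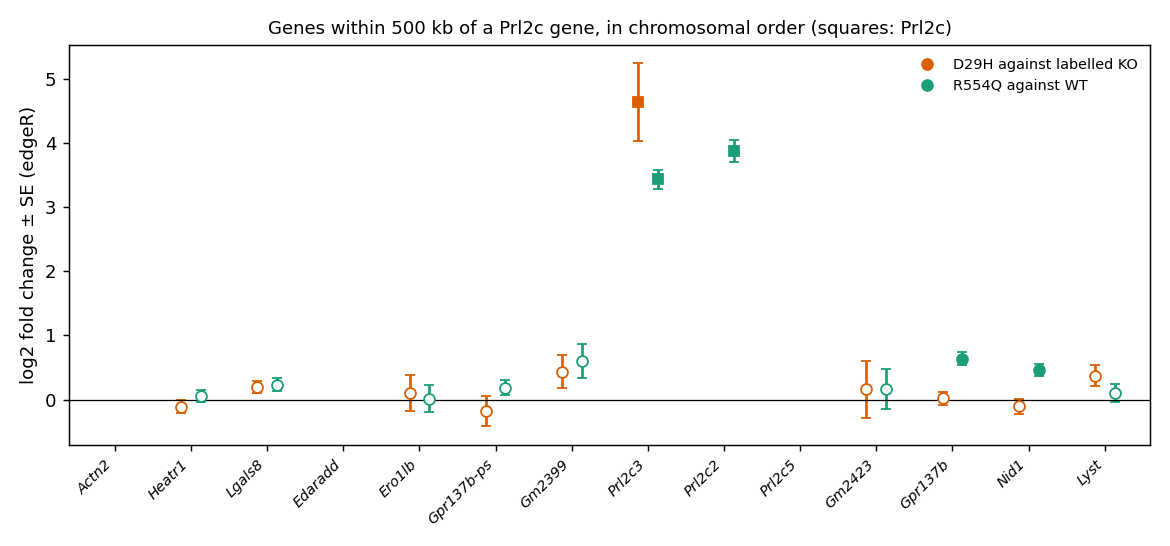
Fitted log2 fold change with its standard error (edgeR) for listed genes within 500 kb of a Prl2c gene, in chromosomal order, for D29H against labelled knockout (orange) and R554Q against wild type (green). Squares are Prl2c genes, filled circles passed an adjusted p of 0.05, green squares carry no test, and genes with no point did not pass the filter; Gpr137b at 0.64 and Nid1 at 0.46 are the called neighbours.

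The other prolactin family genes, which lie outside this stretch, were low in all groups, and edgeR, DESeq2 and limma called none in either comparison. Only Prl3a1 passed the filter in the Nrf2 table, with a log2 fold change of 0.56 (edgeR adjusted p 0.0846), and its Keap1 value was 0.31 (edgeR adjusted p 0.214). Prl3a1 stood at 3.13 ± 0.485 CPM in the labelled knockout, 4.59 ± 0.313 in D29H, 6.44 ± 0.725 in the Keap1 wild type and 7.96 ± 1.18 in R554Q (SD, n = 3 each). This is the same order of groups as for Prl2c, over a far smaller range. The 16 further listed genes of the family held 62 reads in all in the labelled knockout, 138 in D29H, 156 in the Keap1 wild type and 222 in R554Q. Their sum was 0.729 to 1.24 CPM in the labelled knockout and 1.94 to 2.20 CPM in D29H, without overlap, as for 12.7% of all genes tested, and 2.43 to 2.94 against 3.22 to 3.91 CPM in the Keap1 groups, as for 13.3% of all genes. These sums were formed after their values were seen and carry no test.

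Markers of trophoblast, the placental source of proliferin, were near 0 in every library. The 11 markers summed to 0.718 to 1.11 CPM in the Nrf2 libraries, 0.758 to 1.27 CPM in the Keap1 wild type and 1.40 to 2.40 CPM in R554Q. Hand1, a regulator of giant cell fate, held 25 reads in the wild type and 58 in R554Q (log2 fold change 1.13, edgeR adjusted p 0.16), and 30 in the labelled knockout and 21 in D29H. Tpbpa, Ctsq, Cdx2 and Prl3b1 were listed in neither table. Within the R554Q libraries the marker sum stayed far below the 33.1 to 38.7 CPM of proliferin, and its part in the Prl2c values was not tested. In bulk RNA, more cells of a type and more RNA per cell cannot be told apart.

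Markers of other cells differed in part between the Keap1 groups. Keratinocyte markers stayed at or under 1.04 CPM in sum, and endothelial markers at 15.2 to 23.8 CPM. Macrophage markers summed to 79.1 to 89.7 CPM in the Keap1 wild type and 55.3 to 66.8 in R554Q, where Lyz2, lysozyme, fell by 0.53 on the log2 scale (edgeR adjusted p 0.0023). The other tested macrophage markers were not called, with log2 fold changes of 0.19 for Cd68, 0.03 for Csf1r and -0.45 for Ptprc. Muscle markers summed to 12.3 to 14.8 CPM in the wild type and 9.60 to 10.7 in R554Q, with Des, desmin, down by 0.45 (log2 fold change -0.45, edgeR adjusted p 0.0326). Of 10 fibroblast markers only Pdgfra was called in R554Q, where it rose by 0.36 (edgeR adjusted p 0.0358). The list median was -0.09 and the lowest value -0.51, for Lum. Lyz2 was 1 of 4 tested macrophage markers, and Des was the only muscle marker tested. Of all genes, 3.77% were called higher and 2.4% lower in R554Q. Des and Pdgfra each lost the call under 5 of 12 alternative settings, with adjusted p up to 0.124 and 0.147, and Lyz2 kept it under all 12. Macrophage sums in the Nrf2 cells overlapped, at 94.7 to 129 CPM and 121 to 133 CPM. The part of these shifts in the proliferin values was not tested.

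The proliferin receptor gene Igf2r was well expressed in all groups, with 290 ± 31.9 CPM in the labelled knockout, 296 ± 23.1 in D29H, 297 ± 17.6 in the Keap1 wild type and 299 ± 51.4 in R554Q (SD, n = 3 each). Its log2 fold changes were 0.03 and 0.02 (edgeR adjusted p 0.916 and 0.946). Of 9 tested receptor and prolactin signalling genes, 1 fell in D29H, against 3.47% of all genes called higher and 1.28% lower, and 2 rose and 1 fell in R554Q, against 3.77% and 2.4% of all genes. Ghr, the growth hormone receptor, fell in both, with log2 fold changes of -0.37 (edgeR adjusted p 0.042) and -0.34 (0.035). Stat5a, a transcription factor downstream of prolactin-type receptors, rose by 0.50 in R554Q (edgeR adjusted p 0.0074), and the feedback inhibitor Socs3 rose by 0.35 (edgeR adjusted p 0.0458). The list medians of 0.07 and 0.02 lay near those of all genes, which were 0.00 in both comparisons.

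Among AP-1 subunits edgeR called none of 13 tested in D29H, where the median was -0.09, against 3.47% of all genes called higher and 1.28% lower. At an unadjusted p under 0.05, 3 were higher and 1 lower, and DESeq2 called 1 higher and limma none. Without D29H replicate 1, edgeR called 3 higher, in a fit that called 1194 genes higher. In R554Q 2 of 12 rose and 1 fell, against 3.77% and 2.4% of all genes, with a median of 0.07. Fosl1 rose from 50.5 ± 4.01 to 71.6 ± 9.15 CPM (log2 fold change 0.51, edgeR adjusted p 0.00471) and Fosl2 from 260 ± 14.5 to 354 ± 18.7 CPM (0.45, edgeR adjusted p 0.00279). Both encode Fos-type partners of Jun. Atf3, a stress-induced subunit, had a log2 fold change of -0.66 (edgeR adjusted p 0.017). In D29H the values of Fosl1 and Fosl2 were 0.27 and 0.28 (edgeR adjusted p 0.115 for each), and the difference between the alleles for Fosl1 was -0.23 (edgeR adjusted p 0.551). Jun and Fos themselves had R554Q values of 0.09 and 0.07 and D29H values of -0.20 and -0.22, none of them called.

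Of 10 tested glucocorticoid response genes, 1 rose in D29H, against 3.47% of all genes called higher and 1.28% lower, and 1 rose and 2 fell in R554Q, against 3.77% and 2.4% of all genes. The riser was the metallothionein Mt1 in both, by 0.50 (edgeR adjusted p 0.00645) and by 1.00 (edgeR adjusted p 1.91e-07) on the log2 scale. Metallothioneins also respond to metals and oxidants. Tsc22d3 and Errfi1, which glucocorticoids induce, had R554Q values of -0.33 and -0.30 (edgeR adjusted p 0.0449 and 0.0333). The receptor gene Nr3c1 had log2 fold changes of -0.15 and -0.07 (edgeR adjusted p 0.448 and 0.703).

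Growth factor response genes follow serum and mitogens, as proliferin does in fibroblast lines. Of 17 tested, edgeR called none in D29H (median -0.09), where 3.47% of all genes were called higher and 1.28% lower. In R554Q 1 rose and 1 fell (median -0.01), where 3.77% of all genes rose and 2.4% fell. At an unadjusted p under 0.05, 1 was higher and 2 were lower in D29H, where DESeq2 called 1 lower and limma none. The R554Q genes were Plaur, the urokinase receptor, at 0.35 (edgeR adjusted p 0.0162) and the signalling inhibitor Spry4 at -0.35 (edgeR adjusted p 0.0224). Of 18 other angiogenic factors, 1 fell in D29H (1.28% of all genes) and 2 fell in R554Q (2.4% of all genes), with none higher by edgeR, DESeq2 or limma (0 and 2 at an unadjusted p under 0.05) and medians of -0.07 and -0.15. Angptl4 fell in both (log2 fold changes -0.54 and -0.51, edgeR adjusted p 0.0117 and 0.0326) and the placental growth factor Pgf in R554Q (-0.55, edgeR adjusted p 0.0286). Vegfa, the principal endothelial growth factor, had log2 fold changes of 0.21 and -0.01 (edgeR adjusted p 0.281 and 0.964). Of the genes called in the receptor, AP-1, glucocorticoid, growth factor and angiogenic lists, Mt1 (both comparisons) and Fosl2 passed the threshold under all 12 alternative settings, whereas each of the others lost its call under at least 1. The losses ran from 1 setting for Fosl1 and Stat5a to 7 for Tsc22d3 and 8 for Socs3, all in R554Q.

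**Figure D5:**
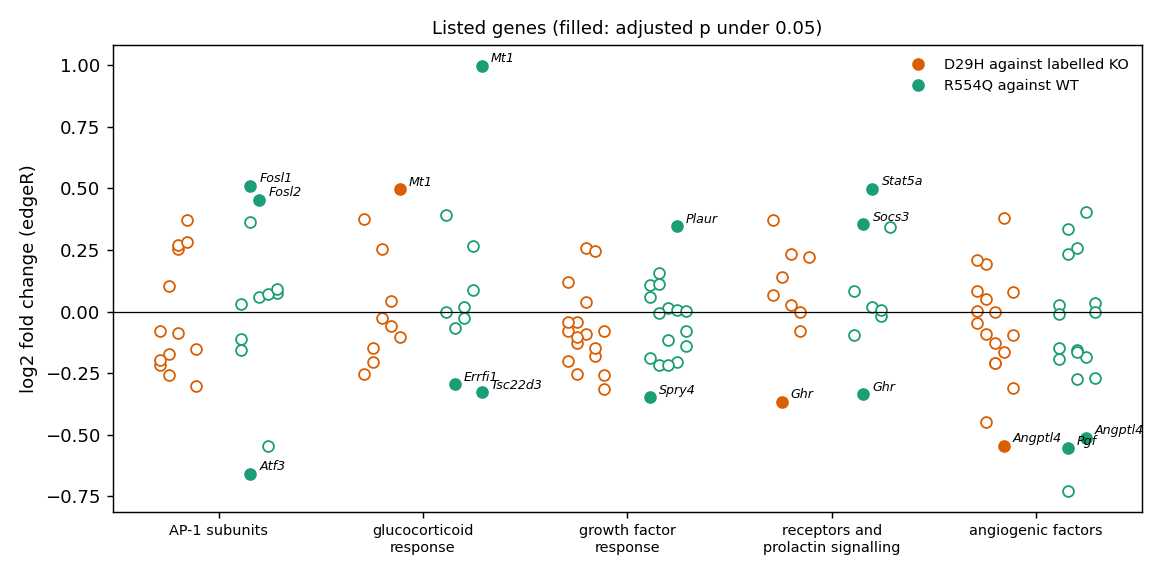
Fitted log2 fold changes (edgeR) of the genes of 5 lists for D29H against labelled knockout (orange) and R554Q against wild type (green), with 1 point per tested gene. Filled, named points passed an adjusted p of 0.05; all of these lie between -0.66 and 1.00.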

How the data were processed

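Sample titles, genotypes and treatments gave the groups. The authors deposited 1 table for the Nrf2 and 1 for the Keap1 libraries, holding unnormalised read counts for each gene, as the file headers name them. STAR, DESeq2 and mm10 are named in the submitters' processing notes, without versions; strand use, read length and the handling of multiply matching reads are not given in the sources used here. The authors also deposited FPKM, group means of normalised counts (a signal), log2 fold changes and p-values, per the file headers; these entered no test.

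Counts were tested per table in R 4.3.3 with edgeR 4.0.16 (filterByExpr, TMM, quasi-likelihood, Benjamini-Hochberg). CPM are counts divided by library size and TMM factor, scaled over all 12 libraries, with no correction for gene length. Prl2c rows were also summed into 1 row. Alternatives were RLE scaling, no filter, DESeq2 1.42.0, limma 3.58.1 with trend, 1 fit of all libraries, a replicate block and leaving out each library. The test was tried on simulated counts. The test between alleles, the combination of no filter with the other settings for Prl2c2, the culture differences and TATATAA were added after values were seen. Ratios pool reads with exact 95% intervals, which cover counting error only and not the spread between libraries. Promoters came from RefSeq (GRCm38.p6) and transcripts from GENCODE M21, with Biopython 1.88. Figures used matplotlib 3.10.9.

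The members and lists were chosen with earlier results of these data known. Named genes were the Prl2c rows, listed genes that were called or central to their list, genes within 500 kb, and the 5 nearest in pattern.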

Additional observations from a re-analysis of the deposited data

How the results depend on the processing

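Higher Prl2c3, Prl2c2 and summed reads in D29H kept their direction and call under every alternative that gave an adjusted p: log2 fold changes ran from 3.40 to 5.41 (edgeR or limma adjusted p up to 0.000943) for Prl2c3, 3.71 to 5.76 (up to 0.000363) for the sum and 5.43 to 6.36 (up to 0.0423) for Prl2c2. DESeq2 gave no adjusted p for Prl2c3 or the sum, and for Prl2c2 only edgeR settings without the filter were run. Apart from the fit without the filter and the fit of all libraries, the alternatives for Prl2c3 and the sum kept the filter. Both passed that filter only through D29H, so the calls in those fits are no separate support. The R554Q descriptions stayed at 3.37 to 3.53, 3.73 to 4.06 and 3.55 to 3.67 for Prl2c3, Prl2c2 and the sum. Genes called in D29H numbered 456 lower without the filter and 312 with DESeq2, and those in R554Q 825 higher and 677 lower without the filter. Leaving out single libraries gave 72 to 1194 higher and 9 to 998 lower in D29H, with the highest counts without D29H replicate 1, and 186 to 1530 higher and 48 to 1342 lower in R554Q, with the highest counts without R554Q replicate 3. Whether equal replicate numbers mark paired libraries is not given by the labels. Deviations of equal numbers correlated at -0.11, -0.09 and -0.05 in the Nrf2 table and 0.05, -0.27 and -0.07 in the Keap1 table. Those of unequal numbers ran from -0.01 to 0.09 and from -0.25 to 0.30. These values gave no sign of pairing but cannot settle it. With a replicate block the R554Q counts were 327 higher and 157 lower, and the D29H values of Prl2c3, Prl2c2 and the sum were 4.68, 6.08 and 5.04 on the log2 scale. Leaving out single libraries turned the sign of uncalled values: Igf2r ran from -0.043 to 0.12 in D29H and -0.13 to 0.10 in R554Q, Nr3c1 from -0.25 to 0.0068 and -0.16 to 0.016, and in R554Q Fos from -0.022 to 0.19 and Vegfa from -0.13 to 0.10. The cause was not tested. Depth limits Prl2c values in the labelled knockout, where 1 library allows up to 0.126 to 0.196 CPM at 0 reads.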
